A study of Homo sapiens with 2 samples.

Results

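The genes described here are 35 proteases of the extracellular matrix and their partners and inhibitors, namely 12 matrix metalloproteinases (MMPs), 4 tissue inhibitors of metalloproteinases (TIMPs), 6 ADAM and 6 ADAMTS proteases, 4 genes of the plasminogen activator system and 3 cysteine cathepsins. They were found by symbol, as the probe sets that the platform annotation pairs with a single one of them, which gave 82 probe sets of 54613 on the array and 35 genes of 19775. Expression was measured on 2 Affymetrix arrays, 1 of each of 2 human renal cell carcinoma lines. The VHL-restored line was derived from 786-O and holds a functional VHL allele, and 786-O itself carries a mutated VHL allele. The labels do not state how that allele was introduced, whether the VHL-restored line is a clone or a pool, or any treatment or infection of either culture. With 1 array per line there is no test, standard error or p-value, and every difference below is a difference between these arrays.

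Matrix proteases cut collagens, proteoglycans and cell-surface proteins, and most are made as inactive precursors that other proteases activate. TIMPs bind the active site of MMPs and of some ADAM and ADAMTS enzymes. Urokinase, bound to its receptor on the cell surface, turns plasminogen into plasmin, a serine protease that digests fibrin and activates several MMP precursors. The VHL protein recruits HIF alpha subunits to a ubiquitin ligase for degradation, and clear-cell kidney cancer cells that lack it are known to assemble a fibronectin matrix poorly.

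Intensities are in arbitrary units on a linear scale. A difference is the log2 intensity of VHL-restored cells minus that of 786-O cells, both with a pseudocount of 16, so a positive value is higher in VHL-restored cells, and a fold is on that scale, which understates the difference of dim genes. A gene was represented by its probe set with the highest mean log2 value, and was counted as measured where the higher of its values passed the floor, the pooled median of all intensities, 22.3. VHL had an intensity of 15.96 in VHL-restored cells and 28.85 in 786-O cells on its brighter probe set, and 7.96 in VHL-restored cells and 6.32 in 786-O cells on the other. On the brighter one VHL was at least 1.17-fold lower in VHL-restored cells, which goes against the label, and the other was below the floor on both arrays. Which part of the transcript these probe sets cover, and whether a restored allele would be read by them, is not given in the sources used here. The labels are therefore not borne out by VHL, every direction below rests on them, and "VHL-restored cells" means the array so labelled. All 9 renal markers with a probe set passed the floor, among them PAX8, at 1068 in VHL-restored cells and 1521 in 786-O cells. Every PAX8 probe set was lower in VHL-restored cells, with differences from -0.29 to -1.08. The dimmest renal marker, LHX1, had 35.3 in VHL-restored cells and 29.2 in 786-O cells, within the range of passing markers of other cells. Of markers of other cells, 1 of 6 leukocyte, 4 of 8 endothelial and 4 of 8 fibroblast and pericyte genes passed it. Their summed intensities were 124 in VHL-restored cells and 106 in 786-O cells for leukocytes, 162 in VHL-restored cells and 145 in 786-O cells for endothelium, and 335 in VHL-restored cells and 356 in 786-O cells for fibroblasts and pericytes. The leukocyte gene that passed was CSF1R, at 48.4 in VHL-restored cells and 40.1 in 786-O cells. The endothelial genes that passed were PECAM1, VWF, TEK and CLDN5. The fibroblast and pericyte genes that passed were COL1A1, LUM, RGS5 and ACTA2. Among the genes below the floor on both arrays were PTPRC, CDH5, PDGFRA and PDGFRB, none of them at 0. Single markers went both ways within the fibroblast and pericyte sum. LUM had 37.1 in VHL-restored cells and 5.64 in 786-O cells, RGS5 had 42.3 in VHL-restored cells and 60.9 in 786-O cells, and ACTA2 had 105 in VHL-restored cells and 136 in 786-O cells. The part of such cells or markers in the differences below was not tested. In bulk RNA, fewer cells that express a gene and less RNA per cell cannot be told apart.

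Of the 35 genes, 29 were measured and 6 lay below the floor on both arrays, namely MMP13, MMP3, MMP10, MMP7, PLAT and CTSK. Differences went both ways, with 14 of the 29 higher and 15 lower in VHL-restored cells and a median difference of -0.01, against 0.05 over all 13291 measured genes. TIMP4 was the only one at least 2-fold higher in VHL-restored cells (beside 1.54% of all measured genes) and ADAMTS5 the only one at least 2-fold lower (beside 2.18%). These are 2 of 29 genes (6.90%), beside 3.72% of all measured genes. Over the median of a gene's probe sets ADAMTS9, at 1.03, and CTSB, at -1.13, were also past 2-fold, beside 3.04% of all measured genes. At 1.5-fold the count was 11 of 29 (37.9%), beside 12.8% of all measured genes. The 4 higher in VHL-restored cells were TIMP4, PLAU, ADAMTS9 and ADAMTS12 (beside 6.25%), and the 7 lower were ADAMTS5, PLAUR, ADAMTS6, CTSB, ADAM12, ADAMTS1 and MMP14 (beside 6.55%). ADAMTS6 is among them only through its value below the floor. With such values set to the floor, 10 of 29 (34.5%) were 1.5-fold apart, 4 higher (beside 6.08%) and 6 lower (beside 6.31%), beside 12.4% of all measured genes, and TIMP4 was still past 2-fold higher (beside 1.48%) and ADAMTS5 past 2-fold lower (beside 2.08%), together beside 3.56%. The genes were chosen with results of these arrays known, so these shares describe them and are no sign of an enrichment.

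**Figure D1:**
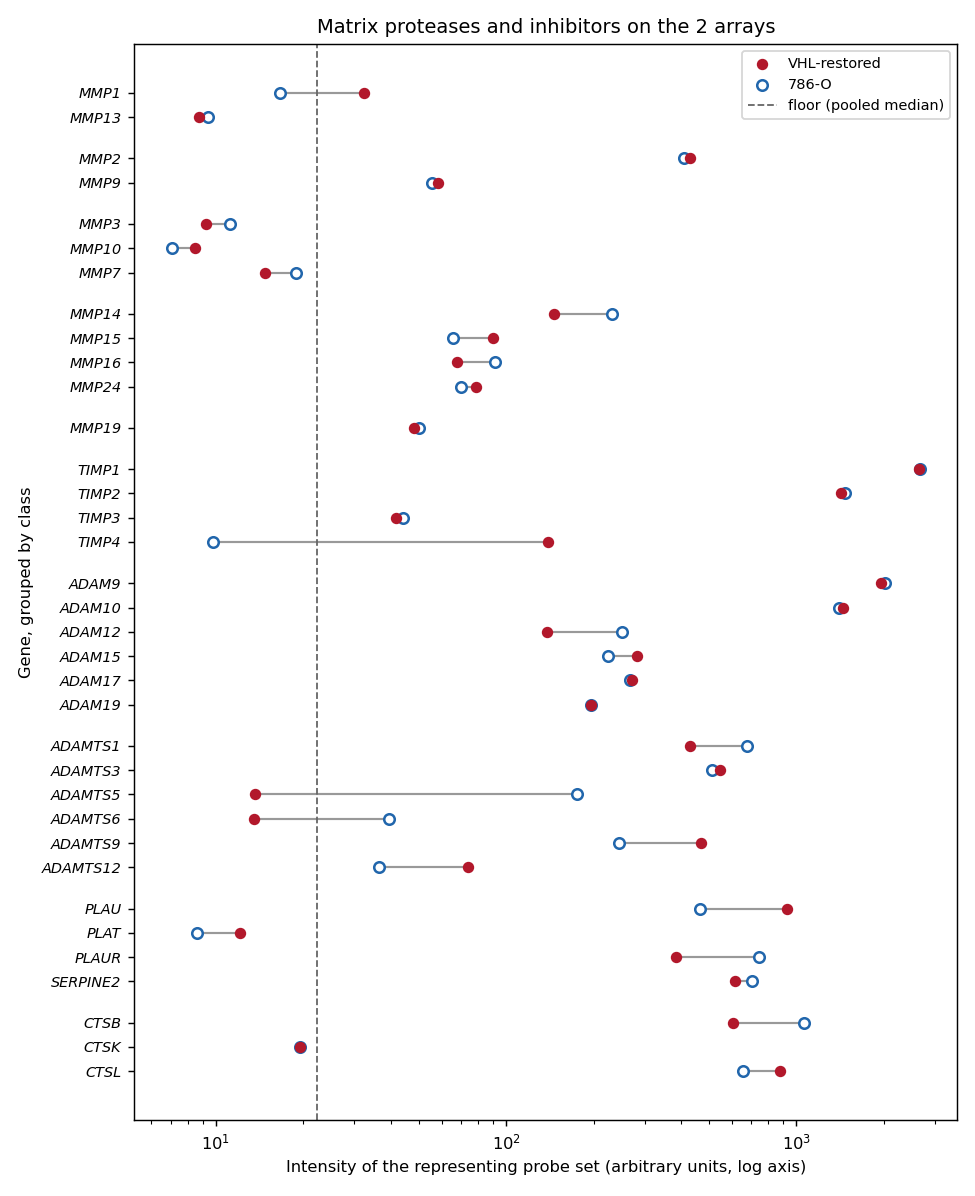
Intensity of the representing probe set of each of the 35 genes (log axis, arbitrary units) in VHL-restored cells (filled) and 786-O cells (open), grouped by class, with the floor of 22.3 as a dashed line. TIMP4 and ADAMTS5 lie on opposite sides of the floor on the 2 arrays, and 6 genes lie below it on both.

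Error could be gauged only from how far the probe sets of a gene disagreed, which covers probe differences, not cultures or arrays. The SD between them was 0.36 log2 units over the 17 genes of the group with at least 2 probe sets above the floor and 0.33 over all such genes. In 6 of those 17 genes (35.3%) every probe set above the floor differed by at least 1.5-fold the same way, beside 4.55% of 6436 genes on the whole array. PLAU and ADAMTS9 were the 2 higher in VHL-restored cells (beside 2.05%), and MMP14, ADAMTS5, PLAUR and CTSB the 4 lower (beside 2.5%). Without the floor the count was 4 of 23 genes, beside 1.81% of the array, since ADAMTS5 and ADAMTS9 have further, dimmer probe sets. This rule was added after the values were seen. The counted probe sets of ADAMTS5 were all below the floor in VHL-restored cells and passed it only through 786-O cells. The filter thus helped to set their agreement, which is no support for the difference of ADAMTS5.

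**Figure D2:**
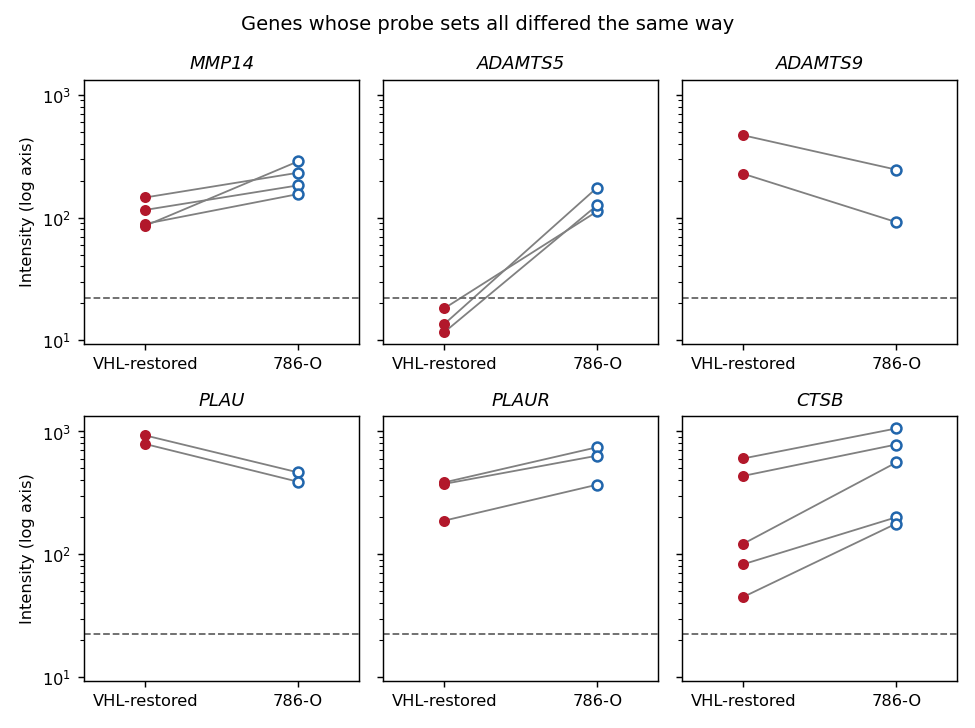
Intensities (log axis, arbitrary units) in VHL-restored cells (filled, left) and 786-O cells (open, right) for the 6 genes whose probe sets above the floor all differed by at least 1.5-fold the same way. Each line is 1 probe set and the dashed line is the floor of 22.3. PLAU and ADAMTS9 were higher in VHL-restored cells on both probe sets, and CTSB was lower on 5 of 5.

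Promoter windows were available for 20 of the 35 genes and are from RefSeq on GRCh38.p14, running from 250 bases before to 50 bases after the gene's start. They are printed for TIMP4, PLAU, MMP14 and PLAUR, an inhibitor and 3 parts of the cell-surface protease system that differed in opposite directions. Capitals mark matches, on either strand, to the HIF core (ACGTG or GCGTG), the AP-1 motif (TGANTCA) or the Sp1 box (GGGCGG). TIMP4 lies on chr3:12158863-12159162 (minus strand), the downstream PLAU start on chr10:73910882-73911181 (plus strand), MMP14 on chr14:22836335-22836634 (plus strand) and PLAUR on chr19:43670120-43670419 (minus strand).
TIMP4: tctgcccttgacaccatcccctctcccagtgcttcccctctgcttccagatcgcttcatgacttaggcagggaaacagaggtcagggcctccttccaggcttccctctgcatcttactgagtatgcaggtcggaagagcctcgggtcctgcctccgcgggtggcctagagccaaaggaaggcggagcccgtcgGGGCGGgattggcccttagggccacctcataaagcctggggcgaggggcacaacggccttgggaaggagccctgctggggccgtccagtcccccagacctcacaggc
PLAU: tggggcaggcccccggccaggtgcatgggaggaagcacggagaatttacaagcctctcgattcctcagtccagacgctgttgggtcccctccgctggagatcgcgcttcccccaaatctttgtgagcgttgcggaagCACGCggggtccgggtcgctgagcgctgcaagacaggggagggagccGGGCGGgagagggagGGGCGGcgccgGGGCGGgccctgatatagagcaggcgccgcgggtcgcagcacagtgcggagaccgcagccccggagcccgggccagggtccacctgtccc
MMP14: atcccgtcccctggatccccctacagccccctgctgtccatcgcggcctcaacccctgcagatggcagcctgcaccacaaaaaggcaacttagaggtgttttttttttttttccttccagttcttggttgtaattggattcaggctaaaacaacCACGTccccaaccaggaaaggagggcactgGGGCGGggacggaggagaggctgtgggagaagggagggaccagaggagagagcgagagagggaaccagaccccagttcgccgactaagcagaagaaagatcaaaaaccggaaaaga
PLAUR: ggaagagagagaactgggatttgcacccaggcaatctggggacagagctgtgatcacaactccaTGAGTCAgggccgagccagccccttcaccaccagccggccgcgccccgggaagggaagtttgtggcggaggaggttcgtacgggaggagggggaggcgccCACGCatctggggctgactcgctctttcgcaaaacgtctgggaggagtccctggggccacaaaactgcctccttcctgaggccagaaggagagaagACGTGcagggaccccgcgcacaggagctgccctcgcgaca

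No match to a motif overlapped a match to another in these 4 windows. The TIMP4 window held a single Sp1 box, 57 bases before the start, and no match to the HIF core, which says only that these letters are not in this window. MMP14 had a HIF core match 96 bases before the start, the PLAU window printed had 1 at 113 bases before it, and the PLAUR window had 1 at 86 bases before it and 1 after it. The upstream PLAU window, on chr10:73910360-73910659 (plus strand), held no match to any of the 3 motifs. PLAUR alone of the 4 held an AP-1 match, 186 bases before the start. The HIF core is common, being present in 48.4% of all 35116 windows of this length, whereas 45.0% hold the Sp1 box and 7.71% the AP-1 motif. Of the 22 windows of the 20 genes, 15 held the HIF core, 16 the Sp1 box and 4 the AP-1 motif. The matches thus stand in windows of genes that were higher and genes that were lower in VHL-restored cells, and a match is a run of letters, not a bound site.

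Among the inhibitors, TIMP4 stood apart from the other TIMPs in size of difference. TIMP4, a TIMP with a narrow tissue distribution, had an intensity of 139 in VHL-restored cells and 9.76 in 786-O cells, where it was below the floor. With 786-O set to the floor TIMP4 was at least 4.06-fold higher in VHL-restored cells. Its log2 difference of 2.59 has no fixed size, being 1.46 with 64 as the pseudocount and 3.71 with 1. TIMP4 rests on a single probe set, so no other probe bears on it.

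The broadly made TIMP1 had an intensity of 2644 in VHL-restored cells and 2665 in 786-O cells, a difference of -0.01. TIMP2, which also takes part in activating the MMP2 precursor together with MMP14, had 1419 in VHL-restored cells and 1469 in 786-O cells on its representing probe set, and its 3 probe sets differed by -0.05, 0.03 and 0.30. TIMP3, which binds to the matrix and also inhibits ADAM17, had 41.6 in VHL-restored cells and 44.0 in 786-O cells, a difference of -0.06, with the other 3 probe sets below the floor. The differences of TIMP1, TIMP2 and TIMP3 were all smaller than 0.36 log2 units, the SD between probe sets of a gene. TIMP1, TIMP3 and TIMP4 each have a single probe set above the floor, so that SD does not gauge their error.

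The secreted MMPs were mostly dim or alike on the 2 arrays. MMP2, a gelatinase that cuts denatured collagen and collagen IV, had an intensity of 429 in VHL-restored cells and 411 in 786-O cells, a difference of 0.06. The other gelatinase gene, MMP9, had 58.0 in VHL-restored cells and 55.4 in 786-O cells, a difference of 0.05. MMP1, a collagenase of fibrillar collagen, had 32.3 in VHL-restored cells and 16.6 in 786-O cells, which was below the floor, so it was at least 1.26-fold higher. MMP19 differed by -0.04. No secreted MMP was 1.5-fold apart.

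MMP1 belongs to a run of 9 neighbouring MMP genes on chromosome 11, in the order MMP7, MMP20, MMP27, MMP8, MMP10, MMP1, MMP3, MMP12 and MMP13, with no other coding gene between them in the RefSeq order. MMP1 alone of these passed the floor. The matrilysin gene MMP7 had 14.7 in VHL-restored cells and 18.9 in 786-O cells, the stromelysin genes MMP3 and MMP10 had 9.26 and 8.47 in VHL-restored cells and 11.2 and 7.03 in 786-O cells, and the collagenase gene MMP13 had 8.76 in VHL-restored cells and 9.39 in 786-O cells. Differences at these intensities have no interpretable size. The 10 measured genes nearest to MMP1 had a median difference of -0.33, and 8 of them were lower in VHL-restored cells, opposite to MMP1.

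Among the membrane-type MMPs, MMP14 was lower in VHL-restored cells. MMP14, or MT1-MMP, cuts fibrillar collagen at the cell surface and activates the MMP2 precursor. Its 4 probe sets read 146, 85.8, 115 and 89.0 in VHL-restored cells, against 232, 287, 183 and 155 in 786-O cells, in the same order. All 4 were lower in VHL-restored cells. The differences were -0.62 on the representing probe set, -1.57 on the next brightest and -0.60 and -0.71 on the others, so that a single probe set was past 2-fold. The measured neighbours of MMP14 on chromosome 14 went both ways, with a median of 0.17 over 10 genes and a range of -3.53 to 2.03.

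MMP15 had 90.3 in VHL-restored cells and 65.7 in 786-O cells, a difference of 0.38, on its only probe set above the floor. MMP16 differed by -0.36 on the representing probe set, with probe sets above the floor from -0.36 to 0.20, and MMP24 by 0.14 and -0.44 on its 2 probe sets. MMP16 and MMP24 therefore differed in sign between their own probe sets, and all 3 stayed under 1.5-fold.

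The ADAM proteases, membrane-bound enzymes that shed growth factors, cytokines and receptors from the cell surface, had small differences on most probe sets. ADAM17, which releases TNF and EGF-family ligands, had an intensity of 272 in VHL-restored cells and 266 in 786-O cells, and its 3 probe sets differed by 0.03, 0.07 and -0.10. ADAM10, which cleaves Notch and cadherins, had 1448 in VHL-restored cells and 1401 in 786-O cells on its brightest probe set, a difference of 0.05. Its other 2 probe sets read 553 and 546 in VHL-restored cells and 333 and 316 in 786-O cells, differences of 0.71 and 0.76. ADAM10 was thus alike on the brightest probe set and over 1.5-fold higher in VHL-restored cells on the others.

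ADAM12 was lower on its brightest probe set, at 138 in VHL-restored cells and 250 in 786-O cells, a difference of -0.78. Its other 3 probe sets above the floor differed by 0.05, -0.15 and 0.05, so the difference rests on that probe set. ADAM9 differed by -0.05 and 0.43, ADAM15 by 0.31 and -0.37 and ADAM19 by -0.01 and 0.04. No ADAM gene had all its probe sets at least 1.5-fold apart the same way.

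**Figure D3:**
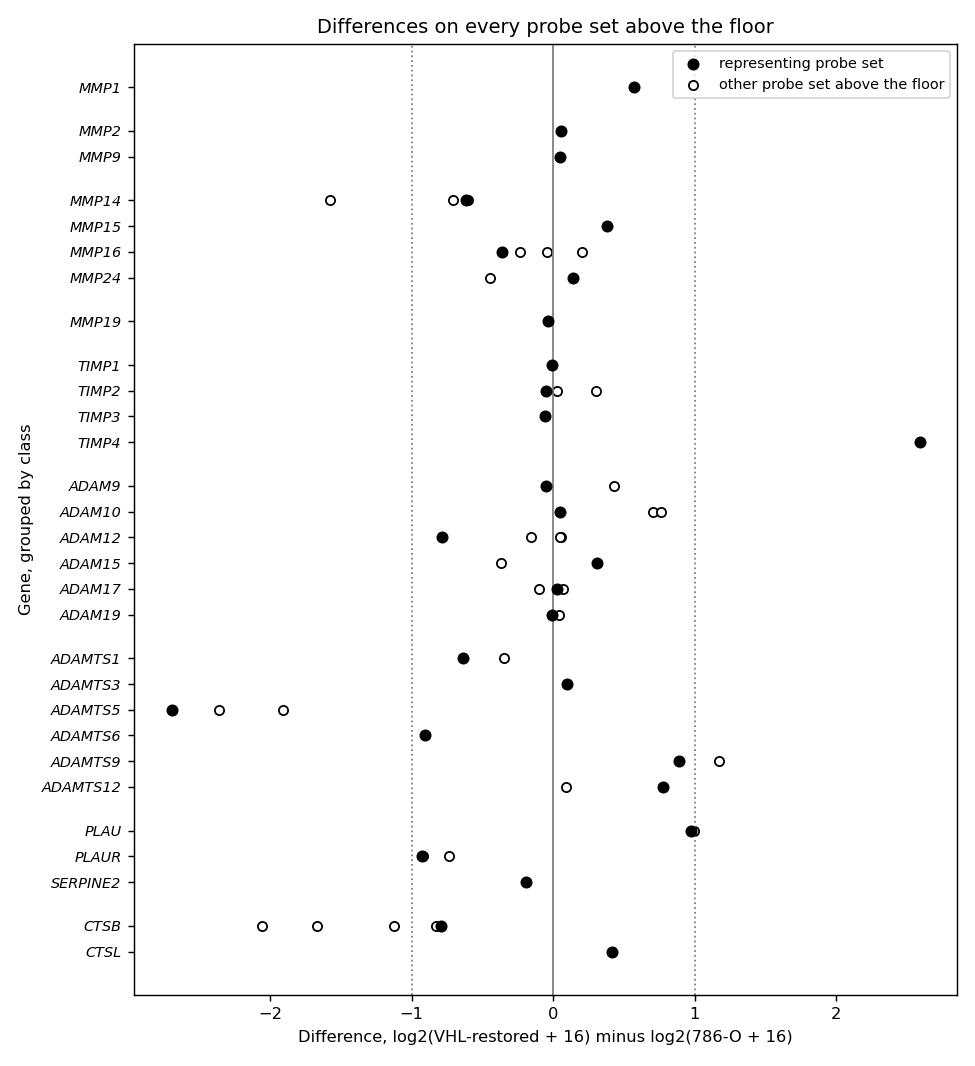
Difference between VHL-restored and 786-O cells, in log2 units, on every probe set above the floor for the 29 measured genes, grouped by class. Filled points are the representing probe sets, open points the other probe sets, and dotted lines mark 2-fold. ADAMTS5 and CTSB lie to the left on all their probe sets shown, TIMP4 to the right, and the probe sets of ADAM10 and ADAM12 disagree among themselves.

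The ADAMTS proteases are secreted enzymes with thrombospondin repeats that cut proteoglycans and process procollagens. Their differences ran from -2.70 to 0.89, the widest range of the classes. ADAMTS5, an aggrecanase, read 13.6, 18.2 and 11.7 in VHL-restored cells, against 176, 113 and 126 in 786-O cells, on its 3 probe sets above the floor, in the same order. All 3 values in VHL-restored cells were below the floor, so these probe sets passed it only through 786-O cells. With VHL-restored cells set to the floor, ADAMTS5 was at least 5.01-fold, 3.36-fold and 3.71-fold lower in VHL-restored cells on them. Its remaining probe set, at 6.51 in VHL-restored cells and 13.6 in 786-O cells, was below the floor on both arrays. The log2 difference of -2.70 on the representing probe set has no fixed size, being -1.63 with 64 as the pseudocount and -3.60 with 1.

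ADAMTS1, an aggrecan- and versican-cleaving protease, is the measured gene next to ADAMTS5 on chromosome 21. It had 429 in VHL-restored cells and 676 in 786-O cells on its representing probe set and 140 in VHL-restored cells and 182 in 786-O cells on the other, differences of -0.64 and -0.35. The 10 measured genes nearest to ADAMTS5, ADAMTS1 among them, had a median of 0.34, and 3 of them were lower in VHL-restored cells. ADAMTS1 and ADAMTS5 thus lay in a stretch where most neighbours were higher in VHL-restored cells.

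ADAMTS9, a versican- and aggrecan-cleaving protease, was higher in VHL-restored cells. It read 467 and 227 in VHL-restored cells, against 246 and 91.9 in 786-O cells, differences of 0.89 and 1.17, with its other 2 probe sets below the floor. ADAMTS12 had 73.7 in VHL-restored cells and 36.4 in 786-O cells, a difference of 0.78, but its other probe set differed by 0.09. ADAMTS6 had 13.6 in VHL-restored cells, below the floor, and 39.5 in 786-O cells, and was at least 1.45-fold lower. ADAMTS3, which processes procollagen, differed by 0.10. Of the 6 ADAMTS genes, ADAMTS9 and ADAMTS12 were at least 1.5-fold higher and ADAMTS5 and ADAMTS1 at least 1.5-fold lower in VHL-restored cells, whereas the bound on ADAMTS6 falls short of that size.

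In the plasminogen activator system the protease and its receptor differed in opposite directions. PLAU, which encodes urokinase, read 929 and 791 in VHL-restored cells, against 464 and 389 in 786-O cells. PLAU was higher in VHL-restored cells on both probe sets, by 0.98 and 0.99 on the log2 scale, just under 2-fold. PLAUR, which encodes the urokinase receptor, read 385, 374 and 188 in VHL-restored cells, against 744, 635 and 369 in 786-O cells, in the same order of probe sets. PLAUR was lower in VHL-restored cells on all 3, with differences of -0.92, -0.74 and -0.92.

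SERPINE2, which encodes protease nexin-1, an inhibitor of thrombin and urokinase, had 613 in VHL-restored cells and 702 in 786-O cells, a difference of -0.19. PLAT, which encodes tissue plasminogen activator, was below the floor at 12.1 in VHL-restored cells and 8.64 in 786-O cells. The 10 measured neighbours of PLAU on chromosome 10 had a median of 0.24 and reached 0.77, below PLAU itself. Those of PLAUR on chromosome 19 had a median of -0.02 and a lowest value of -0.37, above that of PLAUR.

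The cysteine cathepsins, lysosomal proteases that some cells also secrete, were led by CTSB. Its 5 probe sets read 603, 435, 122, 83.0 and 45.0 in VHL-restored cells, against 1058, 783, 559, 200.3 and 178 in 786-O cells, in the same order. CTSB was lower in VHL-restored cells on 5 of 5 probe sets, by -0.79 and -0.83 on the brightest pair and by -2.06, -1.13 and -1.67 on the dimmer ones. Its difference was past 2-fold on 3 probe sets, although the representing one was not. CTSL had 880 in VHL-restored cells and 656 in 786-O cells, a difference of 0.42 on its single probe set. The 2 measured cathepsins of the group thus differed in sign. CTSK, the collagen-degrading cathepsin of osteoclasts, was below the floor at 19.5 on both arrays.

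Counted over probe sets, 9 of 60 above the floor (15.0%) were at least 2-fold apart, beside 4.11% of 24414 on the array. The 2 higher in VHL-restored cells (beside 1.42%) were of TIMP4 and ADAMTS9. The 7 lower (beside 2.7%) were 3 of CTSB, 3 of ADAMTS5 and 1 of MMP14. At 1.5-fold the count was 26 of 60, beside 14.2% of the array. Probe sets of a gene share its RNA and are not independent of each other.

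Further genes of the same systems came from 8 lists of 105 genes, of which 98 had a probe set, 7 were not analysed here and 70 were measured. Of these 70, 1 was at least 2-fold higher and 1 at least 2-fold lower in VHL-restored cells, and their median was 0.06. Those 2 genes (2.86%) stand beside the 3.72% of all measured genes. RUNX2, a transcription factor of bone cells whose known targets include MMP13, had 873 in VHL-restored cells and 366 in 786-O cells, a difference of 1.22, while its 3 dimmer probe sets above the floor ranged from -0.09 to 0.48. CTSZ, a cathepsin that acts as a carboxypeptidase, had 111 in VHL-restored cells and 283 in 786-O cells, a difference of -1.23, but its other probe set differed by 0.13.

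In the lists without a gene at 2-fold the largest differences were smaller. SPOCK1, a proteoglycan of the matrix, had 410 in VHL-restored cells and 222 in 786-O cells, a difference of 0.84 among 11 measured inhibitors. TSPAN5, a tetraspanin that binds ADAM10, had 242 in VHL-restored cells and 424 in 786-O cells, and its 3 probe sets differed by -0.77, -0.38 and -1.04. S100A10, which with annexin A2 forms a plasminogen receptor, had 7357 in VHL-restored cells and 4566 in 786-O cells, and its 2 probe sets differed by 0.69 and 0.83. ADAM28, ADAMTS15 and MMP17 had the largest differences of their lists, at 0.41, 0.37 and 0.35. All 4 measured genes of the other MMPs and all 6 of the other ADAMs were slightly higher in VHL-restored cells, against 56.8% of all measured genes. Those of ADAM33 and ADAM20, at 0.02 and 0.04, were below the median of 0.05 over all measured genes. The other probe set of ADAM8 differed by -0.11, so the shared sign shows no pattern.

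Of 30 genes in these lists with at least 2 probe sets above the floor, 2 (6.67%) had all of them at least 1.5-fold apart the same way, beside 4.55% on the array. S100A10 was 1 of them. The other was ETS1, named after its values were seen, a transcription factor that binds promoters of several MMP genes and of PLAU. It read 923, 366 and 60.6 in VHL-restored cells, against 1681, 973 and 267 in 786-O cells, with differences of -0.85, -1.37 and -1.88. ETS1 was lower in VHL-restored cells on all 3 probe sets.

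**Figure D4:**
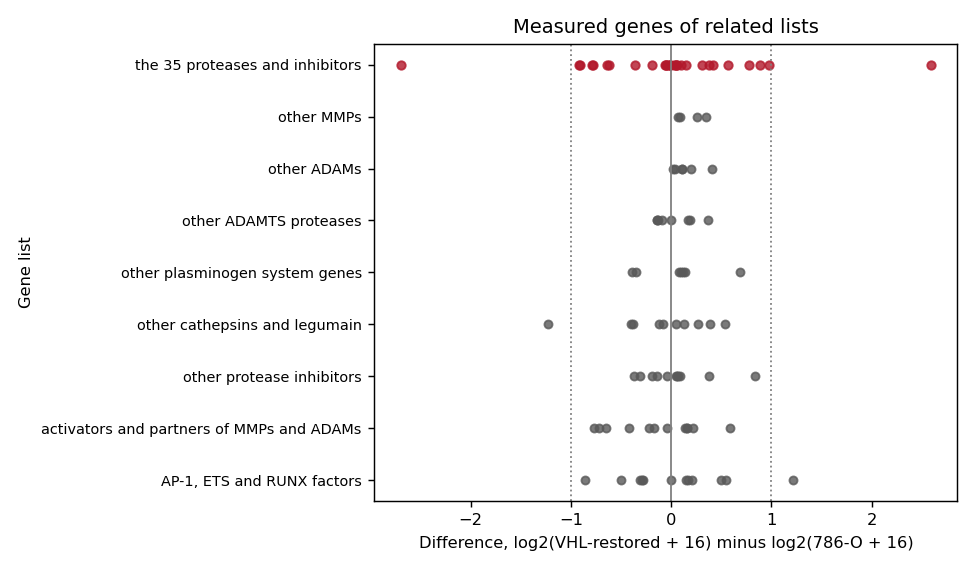
Difference between VHL-restored and 786-O cells, in log2 units, for the 29 measured genes of the 35 (top row) and the 70 measured genes of 8 related lists, each point being the representing probe set of 1 gene. Dotted lines mark 2-fold. RUNX2 and CTSZ are the 2 points of the related lists past 2-fold.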

How the data were processed

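Total RNA, extracted with Trizol per the labels' protocols, was biotin-labelled and hybridised to 2 arrays, 1 per line. The authors deposited 1 linear intensity for each probe set of each array, as judged from the range of values. The submitters' processing notes name R 2.10. How background was corrected, arrays normalized and probes summarised is not given in the sources used here, and such steps can compress or shift differences. Of 54613 probe sets, 2127 (3.89%) have exactly equal intensities on both arrays, 2 of them of the genes described here (1 of MMP15, 1 of CTSK).

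The platform annotation names a single gene for 41091 probe sets, 41037 of which got a current symbol through their Entrez number. Log2 values used a pseudocount of 16 and the floor was the pooled median. No test was run, since 1 array per line limits the precision. Sizes of 2-fold and 1.5-fold were used, and folds across the floor are lower bounds with the dimmer array set to the floor. Full values were given for genes at least 2-fold apart, all TIMPs, the plasminogen activator system and the largest difference of each other class, and for the wider lists the genes at least 2-fold apart or the largest difference. Other genes were named after their values were seen. The members and lists were chosen with earlier results of these data known. Gene order came from RefSeq (GRCh38.p14), and neighbours are the 5 measured genes on each side, a choice made after values were seen. The counting was tested on simulated data with planted differences. Noise in them came from the SD between probe sets, which covers neither cultures nor arrays, so only the counting itself was checked. Alternatives were quantile normalization, removal of the intensity trend, other floors, values below the floor set to it, probe set rules, pseudocounts and sizes. The software was Python 3.11.15 with pandas 2.3.3, numpy 2.4.6, statsmodels 0.14.6 and matplotlib 3.10.9.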

Additional observations from a re-analysis of the deposited data

How the results depend on the processing

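No paired analysis was possible because there was a single array per line, which also leaves no replicate to omit. TIMP4 and ADAMTS5 were at least 2-fold apart under every alternative run. Over the median of probe sets, 4 of the 29 measured genes were at least 2-fold apart, beside 3.04% of all measured genes. ADAMTS9, at 1.03, and CTSB, at -1.13, had joined TIMP4 and ADAMTS5. In the wider lists 1 gene was that far apart. At 1.5-fold the counts were 11 of the 29 measured genes (37.9%), 26 of 60 probe sets and 9 of 70 wider-list genes (12.9%). Beside them stand 1702 of all measured genes (12.8%) and 14.2% of probe sets on the array. With a pseudocount of 64, 256 of all measured genes (1.93%) and 1 wider-list gene were 2-fold apart. Without _s_at, _x_at and _a_at probe sets 1 wider-list gene was, beside 3.78% of all measured genes. Without those probe sets, genes whose probe sets all differed the same way numbered 3 of the 7 left to count, beside 4.09% of 2934 genes. MMP14, PLAU and PLAUR keep fewer than 2 probe sets there. MMP14 also left that count with quantile normalization and a pseudocount of 64, since its smallest difference lies near 1.5-fold. With no filter ADAMTS5 and ADAMTS9 left it, which gave 4 of 23 genes, beside 1.81% of the array. The median absolute difference of the measured genes, 0.36, was 0.19 with no filter, 0.19 over the median of probe sets, 0.28 without suffixed probe sets, 0.42 with a pseudocount of 1 and 0.25 with 64. Of 95 alternative values of the 11 genes at least 1.5-fold apart, 94 had the sign of the reported difference, the exception being ADAM12 at 0.05 without suffixed probe sets, and 14 moved beyond the SD between probe sets. Over the 29 measured genes 11 of 243 values had the other sign and 17 moved that far. Another filter, pseudocount or floor value cannot turn the sign of a difference on the same probe set. Much of the agreement in sign was thus fixed in advance and does not gauge the directions. TIMP4 ranged from 1.46 to 3.71, ADAMTS5 from -3.60 to -1.63 and ADAMTS6 from -1.47 to -0.42. With values below the floor set to it, an alternative added after seeing the data, these were 2.02, -2.32 and -0.53. MMP1 and TIMP4 in 786-O cells, and ADAMTS5 and ADAMTS6 in VHL-restored cells, lie below the floor, which limits what the sizes of their differences show.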
